A study of Danio rerio with 23 samples.

Results

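irx1a, irx1b and irx7 are 3 zebrafish genes of the Iroquois family, taken here by name from the 31743 gene rows that each library's table holds, and described over 23 RNA-seq libraries of whole embryos. Iroquois genes encode homeodomain transcription factors of the TALE class, which bind DNA and act in dividing tissues such as the neural plate into regions. In the zebrafish neural plate irx1b (also called iro1) and irx7 (iro7) are known as genes of the territory that forms the midbrain and hindbrain, and irx1a is the near copy of irx1b. Wnt signals are known to promote caudal neural fates at the expense of the forebrain. The study's title concerns how Wnt patterns the neural plate through time.

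Transgenic embryos were heterozygous (hs:dkk1b/+ or hs:wnt8a/+) offspring of a carrier and a wild-type parent. A heat-shock promoter acts in the whole embryo and drives dkk1b, a secreted Wnt antagonist, in hs:dkk1b embryos, or wnt8a, a Wnt ligand, in hs:wnt8a embryos. Transgenic embryos were recognised by fluorescence, and the controls were their siblings labelled genotypically wild type. All 8 groups were heat shocked, at 37 °C for 60 minutes in the hs:dkk1b crosses and at 39 °C for 30 minutes in the hs:wnt8a crosses, before recovery at 29 °C. The groups were hs:dkk1b embryos at 7.5 and 5.5 hours post fertilisation (hpf), hs:wnt8a embryos at 7.5 and 5.5 hpf, and the siblings of each. The titles give these times and a second label field gives 5 and 7 hpf, and the labels do not settle which is collection. There were 3 libraries per group, except hs:wnt8a embryos at 5.5 hpf with 2. Several pairs of fish supplied the embryos, but no label ties a library to a clutch of its own, so the p-values reflect how far the libraries spread, and some of that spread may be technical.

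Total counts per library ran from 13845788 to 20467185. Levels below are CPM, counts scaled to a common library size with edgeR's TMM correction. Tests are edgeR's quasi-likelihood test over 19504 genes, with Benjamini-Hochberg adjusted p and 0.05 as the threshold. In whole embryos fewer cells of a type and less RNA per cell cannot be told apart.

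The genes carried by the transgenes were read first. dkk1b averaged 3039 ± 843 CPM in hs:dkk1b embryos and 30.8 ± 21.2 CPM in siblings at 5.5 hpf, and 8297 ± 9341 CPM in hs:dkk1b embryos and 38.8 ± 18.4 CPM in siblings at 7.5 hpf (SD, n = 3 each). The wnt8a row that the transgene raised, wnt8a_1 (ENSDARG00000052910), averaged 3652 ± 563 CPM in hs:wnt8a embryos and 65.6 ± 99.0 CPM in siblings at 7.5 hpf (SD, n = 3 each). At 5.5 hpf it averaged 3056 ± 554 CPM in hs:wnt8a embryos (SD, n = 2) and 567 ± 166 CPM in the embryos labelled as their siblings (SD, n = 3), while siblings of hs:dkk1b at that time averaged 6.08 ± 1.36 CPM (SD, n = 3). The siblings of hs:wnt8a at 5.5 hpf thus held far more wnt8a_1 RNA than siblings of the other cross. At 7.5 hpf sibling replicates 1, 2 and 3 of hs:wnt8a held 179.7, 2.33 and 14.8 CPM. Neither the labels nor these values settle whether those sibling groups were free of transgenic embryos. If they were not, the hs:wnt8a fold changes below and the change between times in siblings of that cross would not be against wild-type embryos alone, and this was not tested. With hs:wnt8a, wnt8a_1 passed at 7.5 hpf (log2 fold change 5.80 ± 0.93, SE, edgeR, adjusted p = 0.0073). At 5.5 hpf it did not (2.43 ± 0.84, SE, edgeR, unadjusted p = 0.00925). The other wnt8a row, wnt8a_2, passed at neither time with hs:wnt8a. In siblings of hs:wnt8a against siblings of hs:dkk1b, wnt8a_2 was lower at 5.5 hpf (-1.71, edgeR, adjusted p = 0.00138) and 7.5 hpf (-1.36, edgeR, adjusted p = 0.0123). Replicate 1 of the hs:dkk1b cross at 7.5 hpf stood apart in the heat-inducible chaperone gene hsp70l, with 2654 CPM in the transgenic and 1228 CPM in the sibling library, against 40.7 to 78.0 CPM in the other libraries of that cross and time. Its transgenic library also held 19063 CPM of dkk1b, against 2329 and 3500 CPM in hs:dkk1b replicates 2 and 3 at 7.5 hpf.

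The 3 genes differed widely in abundance. Per length, on the deposited TPM scale, irx7 was the most abundant Iroquois gene in every library, with 50.0% to 81.9% of the summed TPM of the 11 Iroquois rows. irx1b held 13.2% to 36.3% and irx1a 0.113% to 5.37%. In siblings of hs:dkk1b at 7.5 hpf the group means were 306.9 ± 22.2 TPM for irx7, 100.2 ± 22.3 TPM for irx1b and 14.9 ± 4.9 TPM for irx1a (SD, n = 3). The ratio of irx7 to irx1b TPM ran from 1.38 in hs:dkk1b replicate 3 at 7.5 hpf to 6.17 in hs:wnt8a replicate 2 at 5.5 hpf. Over all libraries the deposited tables gave 52206 reads to irx7 (ENSDARG00000002601), 21653 to irx1b (ENSDARG00000056594) and 2079 to irx1a (ENSDARG00000101831). Reads shared by irx1a and irx1b may have been split by the authors' counting in a way that is not given in the sources used here, so the low level of irx1a beside irx1b is uncertain. In the RefSeq table of another assembly (GRCz12tu), irx1a lies on the same chromosome as irx4a and irx2a, irx1b on that of irx4b, and irx7 on a chromosome with no other Iroquois gene.

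**Figure D1:**
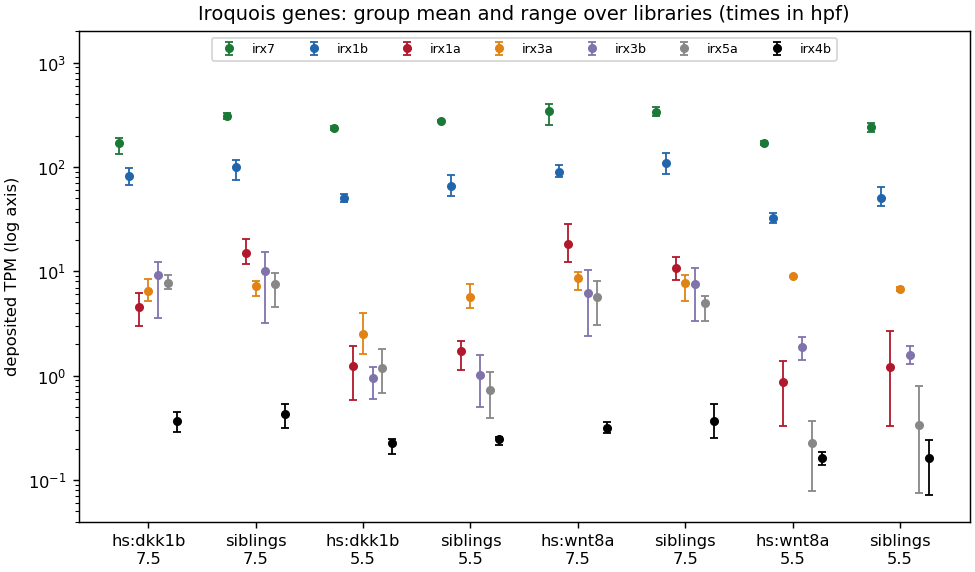
Deposited TPM (log axis) of the 7 Iroquois genes that passed the filter on low counts, in the 8 groups; points are group means and bars run from the lowest to the highest library. irx7 lies on top in each group and irx1b next, while irx1a, irx3b and irx5a stand higher at 7.5 hpf than at 5.5 hpf.

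Between 5.5 and 7.5 hpf irx1a rose about 8-fold in both sets of siblings, irx1b rose less and irx7 showed no change past the threshold. This was read in siblings, where 31% of all genes tested changed between the times in the hs:dkk1b cross (15.6% higher at 7.5 hpf) and 40.2% in the hs:wnt8a cross (21.8% higher), so a call by itself sets no gene apart. Libraries at 7.5 hpf all lay above those at 5.5 hpf for 24.1% of genes in siblings of hs:dkk1b and for 25.9% in siblings of hs:wnt8a.

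In siblings of hs:dkk1b irx1a had 8.11, 9.24 and 13.8 CPM at 7.5 hpf, against 1.32, 0.851 and 1.52 CPM at 5.5 hpf. The later libraries all lay above the earlier ones, and the log2 fold change was 3.07 ± 0.56 (SE, edgeR, adjusted p = 0.000547, n = 3 each). In siblings of hs:wnt8a it had 10.3, 5.39 and 6.89 CPM at 7.5 hpf, against 0.257, 2.01 and 0.542 CPM at 5.5 hpf, again with no overlap, and the log2 fold change was 2.98 ± 0.57 (SE, edgeR, adjusted p = 0.000498, n = 3 each). The low counts limit what can be read at 5.5 hpf, where irx1a had from 4 to 33 reads per library. A count of 4 has a 95% exact Poisson interval of 1.09 to 10.2 reads, which covers counting error only.

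irx1b had 74.5, 56.8 and 79.5 CPM in siblings of hs:dkk1b at 7.5 hpf, against 61.3, 40.0 and 42.2 CPM at 5.5 hpf, so that 1 early library lay within the later range. Its log2 fold change was 0.56 ± 0.20 (SE, edgeR, adjusted p = 0.0379), and this call was lost without sibling replicate 1 or 3 at 7.5 hpf (adjusted p = 0.101 and 0.141) and without sibling replicate 2 or 3 at 5.5 hpf (adjusted p = 0.163 and 0.121). In siblings of hs:wnt8a irx1b had 65.4, 68.5 and 89.8 CPM at 7.5 hpf, against 35.4, 48.7 and 34.6 CPM at 5.5 hpf. These groups did not overlap, and the log2 fold change was 0.91 ± 0.20 (SE, edgeR, adjusted p = 0.00135).

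irx7 differed little between the times in siblings. It had 141.7, 147.8 and 152.3 CPM in siblings of hs:dkk1b at 7.5 hpf, against 139.2, 143.6 and 133.1 CPM at 5.5 hpf, a log2 fold change of 0.09 ± 0.16 (SE, edgeR, adjusted p = 0.712). It had 159.7, 143.3 and 168.0 CPM in siblings of hs:wnt8a at 7.5 hpf, against 126.9, 136.6 and 119.7 CPM at 5.5 hpf, a log2 fold change of 0.30 ± 0.16 (SE, edgeR, adjusted p = 0.144). A p that misses the threshold does not show that the level stayed the same. Siblings of hs:wnt8a and of hs:dkk1b, which differ in cross and heat shock together, gave log2 differences of -0.46 to 0.09 for the 3 genes at the 2 times, none past the threshold (edgeR, adjusted p from 0.425 to 0.880), where 7.73% of genes were called at 5.5 hpf and 1.77% at 7.5 hpf.

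**Figure D2:**
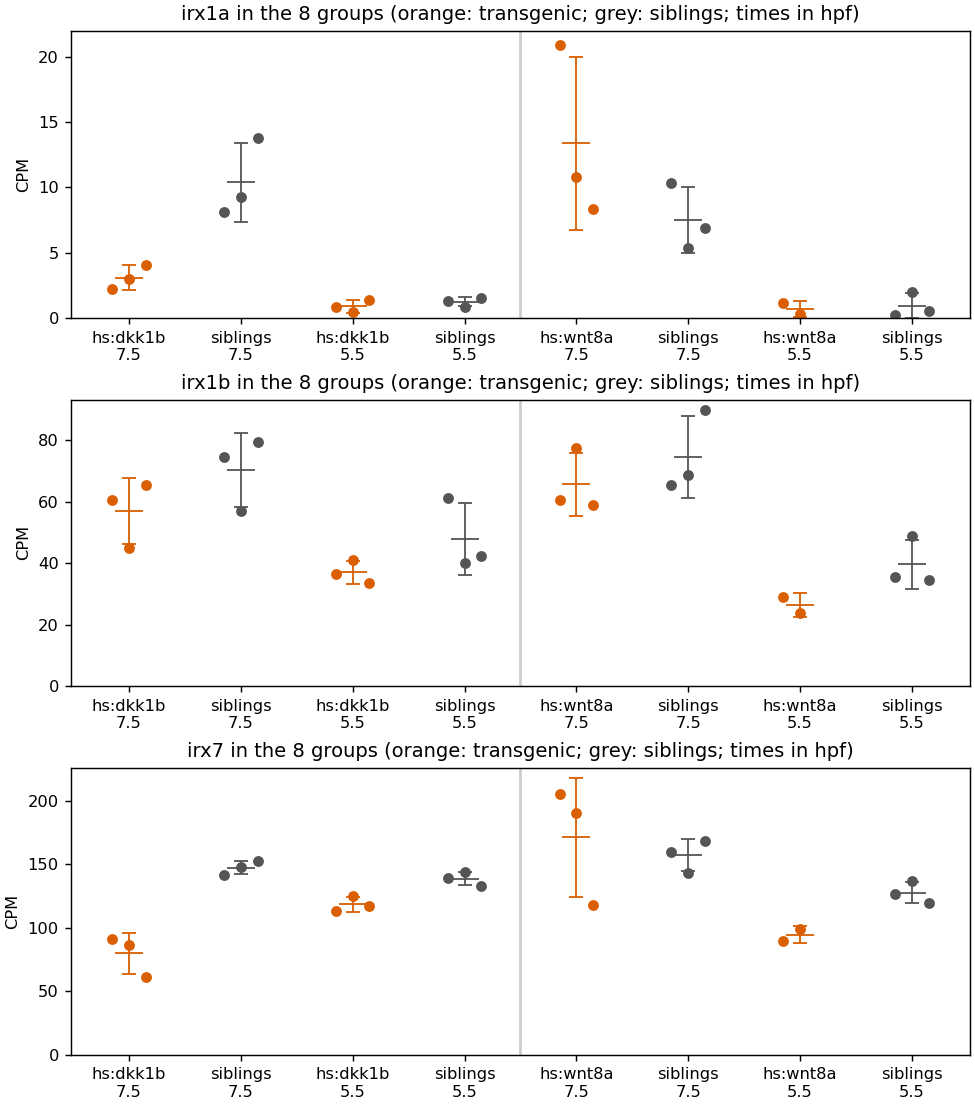
CPM of irx1a, irx1b and irx7 in each library of the 8 groups, with transgenic groups in orange and siblings in grey; horizontal bars are group means and error bars SD. The 3 hs:dkk1b libraries at 7.5 hpf sit at 61.3 to 91.2 CPM for irx7 and at 2.19 to 4.09 CPM for irx1a, below all libraries of their siblings.

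For irx7 and irx1a the largest fold changes against siblings came with hs:dkk1b at 7.5 hpf, while that of irx1b came with hs:wnt8a at 5.5 hpf. With hs:dkk1b at 7.5 hpf irx7 fell, irx1a was lower in every library and passed the test in the paired fit alone, and irx1b did not pass in either fit. In this comparison 0.154% of all genes tested passed the threshold, and 0.149% of all genes passed with hs:dkk1b lower.

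irx7 had 91.2, 86.7 and 61.3 CPM in hs:dkk1b embryos at 7.5 hpf, against 141.7, 147.8 and 152.3 CPM in siblings. The groups did not overlap, and the sibling libraries were close together while hs:dkk1b replicate 3 lay below the other two. The mean was 79.7 ± 16.1 CPM in hs:dkk1b embryos and 147.3 ± 5.3 CPM in siblings (SD, n = 3 each). The log2 fold change was -0.89 ± 0.16 (SE, edgeR, adjusted p = 0.0204), and as a share of the same-numbered sibling library the hs:dkk1b libraries held 64.4%, 58.7% and 40.2%. Leaving out 1 library at a time, the call was kept without hs:dkk1b replicate 1 (adjusted p = 0.0442) and lost without hs:dkk1b replicate 2 or 3 (adjusted p = 0.0609 and 0.154) or without sibling replicate 1, 2 or 3 (adjusted p = 0.0573, 0.0714 and 0.0814). Without both replicate 1 libraries, which were high in hsp70l, the log2 fold change was -1.03 (edgeR, adjusted p = 0.0942). With the replicate number as a block, a pairing explained below, it was -0.90 ± 0.15 (SE, edgeR, adjusted p = 0.00867). In that fit 0.749% of all genes passed. By DESeq2, which called 58 of 28309 genes, the log2 fold change was -0.89 (adjusted p = 0.000187).

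irx1a had 2.19, 2.96 and 4.09 CPM in hs:dkk1b embryos at 7.5 hpf, from 35, 52 and 69 reads, against 8.11, 9.24 and 13.8 CPM in siblings, from 147, 164 and 245 reads. The groups did not overlap, and the hs:dkk1b libraries held 27.0%, 32.1% and 29.6% of the same-numbered sibling library. The mean was 3.08 ± 0.95 CPM in hs:dkk1b embryos and 10.4 ± 3.0 CPM in siblings (SD, n = 3 each). The log2 fold change of -1.75 ± 0.51 did not pass the threshold (SE, edgeR, adjusted p = 0.637). With the replicate number as a block, a pairing taken from the correlation of same-numbered libraries and not from the labels, it was -1.75 ± 0.33 and passed (SE, edgeR, adjusted p = 0.0195), where 0.749% of all genes passed.

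irx1b had 60.4, 44.8 and 65.3 CPM in hs:dkk1b embryos at 7.5 hpf, against 74.5, 56.8 and 79.5 CPM in siblings. The groups overlapped, although the hs:dkk1b libraries held 81.1%, 78.8% and 82.2% of the same-numbered sibling library. The log2 fold change was -0.31 ± 0.20 (SE, edgeR, adjusted p = 1). Among all genes, 3.75% had groups that did not overlap with hs:dkk1b lower at 7.5 hpf, as irx7 and irx1a did. The genes listed as markers of axial mesoderm, the tissue under the neural plate midline, were lower in sum but did not all move in 1 direction. Their sum was not shown to measure that tissue alone. Their summed level was 517 to 642 CPM in hs:dkk1b embryos and 687 to 974 CPM in siblings at 7.5 hpf, and none of the 8 was at 0. The median log2 fold change of the 8 was -0.23, and 2 of 8 fell (noto and tbxta). Mean tbxta was 58.1 ± 10.8 CPM in hs:dkk1b embryos and 177.4 ± 38.0 CPM in siblings (SD, n = 3 each). Mean chrd, which did not pass, was 283.6 ± 47.9 CPM in hs:dkk1b embryos and 370.9 ± 101.1 CPM in siblings (SD, n = 3 each). Mean gsc was not lower, with 30.3 ± 5.6 CPM in hs:dkk1b embryos and 25.8 ± 1.5 CPM in siblings (SD, n = 3 each). Summed enveloping layer markers overlapped, with 18237 to 22101 CPM in hs:dkk1b embryos and 18591 to 21156 CPM in siblings. No marker of the enveloping layer (7 genes), yolk syncytial layer (6) or endoderm (5) and no heat-shock chaperone gene of 10 passed in any of the 4 comparisons of a transgene with siblings in the fit without the replicate block. With the block, in which irx1a passed, 3 of 8 axial mesoderm markers (noto, tbxta and shha) and 1 of 6 yolk syncytial layer markers (slc26a1) fell with hs:dkk1b at 7.5 hpf. The part of these tissues in the Iroquois values was not tested.

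At 5.5 hpf none of the 3 genes passed with hs:dkk1b. irx7 had 112.9, 125.0 and 117.4 CPM in hs:dkk1b embryos, against 139.2, 143.6 and 133.1 CPM in siblings. The groups did not overlap, which held for 2.34% of all genes with hs:dkk1b lower, but the log2 fold change of -0.23 ± 0.16 did not pass the threshold (SE, edgeR, adjusted p = 1), where 0.0513% of genes passed. irx1b had 36.5, 41.1 and 33.7 CPM in hs:dkk1b embryos, against 61.3, 40.0 and 42.2 CPM in siblings, and the groups overlapped. Its log2 fold change was -0.37 ± 0.20 (SE, edgeR, adjusted p = 1). irx1a had 0.853, 0.432 and 1.40 CPM in hs:dkk1b embryos, against 1.32, 0.851 and 1.52 CPM in siblings, a log2 fold change of -0.46 ± 0.61 (SE, edgeR, adjusted p = 1) at counts too low to show a difference of that size. The effect at 7.5 hpf minus that at 5.5 hpf was -0.66 ± 0.23 for irx7 (SE, edgeR, unadjusted p = 0.00859, adjusted p = 1), -1.29 ± 0.80 for irx1a and 0.06 ± 0.28 for irx1b (SE, edgeR, both adjusted p = 1). No gene passed this test of the difference between times by edgeR, 170 had an unadjusted p under 0.05, and DESeq2 called 1, so the growth of the irx7 difference is not established.

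**Figure D3:**
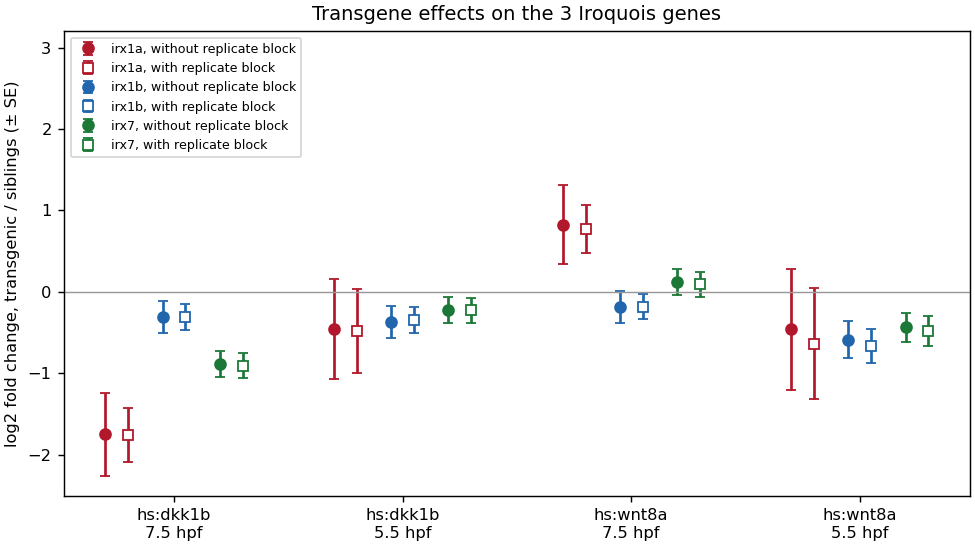
Log2 fold change of each transgenic group over its siblings, with SE, for irx1a, irx1b and irx7 at 7.5 and 5.5 hpf; filled circles are fits without the replicate block and open squares fits with it. At 7.5 hpf with hs:dkk1b irx1a lies at -1.75 and irx7 at -0.89, and with hs:wnt8a irx1a lies at 0.82.

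With hs:wnt8a none of the 3 genes passed the test at either time. At 5.5 hpf all 3 fitted fold changes were below 0. At 7.5 hpf irx1a was higher in every same-numbered pair, while irx1b and irx7 each had pairs in both directions.

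At 5.5 hpf irx7 had 89.7 and 99.2 CPM in hs:wnt8a embryos, against 126.9, 136.6 and 119.7 CPM in siblings. The groups did not overlap, and the log2 fold change was -0.44 ± 0.18 (SE, edgeR, unadjusted p = 0.0256, adjusted p = 1). irx1b had 29.1 and 23.7 CPM in hs:wnt8a embryos, against 35.4, 48.7 and 34.6 CPM in siblings. These groups did not overlap either, and the log2 fold change was -0.59 ± 0.23 (SE, edgeR, unadjusted p = 0.0179, adjusted p = 1). With 2 libraries against 3, 11.2% of all genes had groups that did not overlap with hs:wnt8a lower, so this is common in the comparison. No gene passed the test there by edgeR, 649 had an unadjusted p under 0.05 and DESeq2 called 5. irx1a had 1.11 and 0.269 CPM in hs:wnt8a embryos, from 16 and 4 reads, against 0.257, 2.01 and 0.542 CPM in siblings, from 4, 33 and 8 reads, and no direction can be read from these. Sibling replicate 2, the highest sibling library for irx1a, irx1b and irx7, also stood apart from its group over all counts, as given below. Summed heat-shock chaperone genes, 10 genes with none at 0, were at 42592 to 43709 CPM in hs:wnt8a embryos and 26419 to 39665 CPM in siblings, and the part of this difference in the Iroquois values was not tested.

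At 7.5 hpf irx1a had 20.9, 10.8 and 8.36 CPM in hs:wnt8a embryos, against 10.3, 5.39 and 6.89 CPM in siblings. The groups overlapped because sibling replicate 1, at 10.3 CPM, lay above hs:wnt8a replicate 3, at 8.36 CPM. The hs:wnt8a libraries held 202.7%, 200.5% and 121.3% of the same-numbered sibling library. The log2 fold change was 0.82 ± 0.48 (SE, edgeR, adjusted p = 1, with the replicate block 0.754, where 0.0974% of genes passed without the block and 0.385% with it). It was 0.35 without hs:wnt8a replicate 1 and 1.12 without sibling replicate 1, the sibling library at 7.5 hpf that held the most wnt8a_1 RNA.

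irx7 had 205.5, 190.5 and 118.1 CPM in hs:wnt8a embryos at 7.5 hpf, against 159.7, 143.3 and 168.0 CPM in siblings. Replicates 1 and 2 of hs:wnt8a lay above all siblings and replicate 3 below them, and the log2 fold change was 0.13 ± 0.16 (SE, edgeR, adjusted p = 1). irx1b had 60.4, 77.5 and 58.9 CPM in hs:wnt8a embryos, against 65.4, 68.5 and 89.8 CPM in siblings. These groups overlapped, and the log2 fold change was -0.18 ± 0.20 (SE, edgeR, adjusted p = 1). The effect at 7.5 hpf minus that at 5.5 hpf was 0.56 ± 0.24 for irx7 (SE, edgeR, unadjusted p = 0.0298, adjusted p = 1), 1.28 ± 0.89 for irx1a and 0.40 ± 0.30 for irx1b (SE, edgeR, both adjusted p = 1), and 0.00513% of genes passed.

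**Figure D4:**
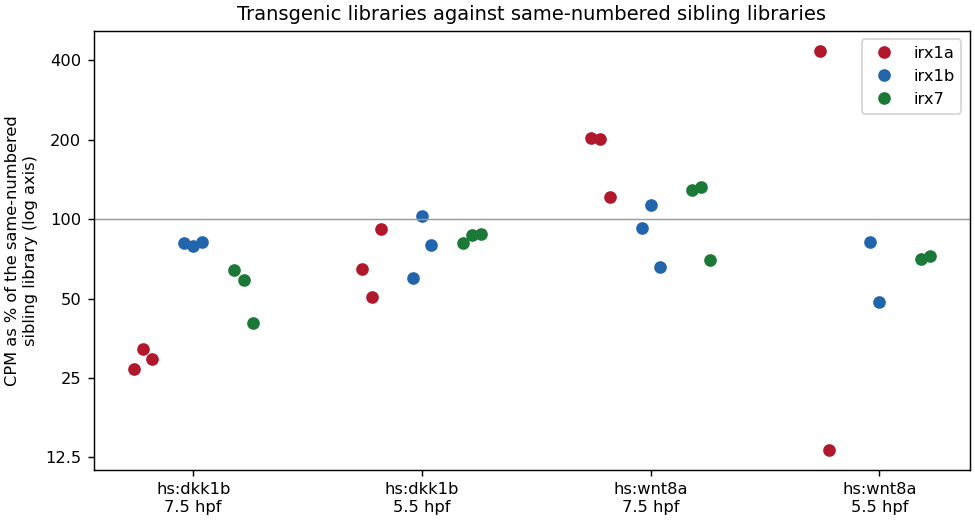
CPM of each transgenic library as a percentage of the sibling library with the same replicate number (log axis) for the 3 genes; the line at 100 marks equal levels. The 3 irx1a pairs with hs:dkk1b at 7.5 hpf lie between 27.0% and 32.1%, and with hs:wnt8a between 121.3% and 202.7%.

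The antagonist and the ligand were then set against each other at 7.5 hpf, a contrast chosen after the values were seen. Each effect is against siblings of its own cross, but cross and heat shock differ between the transgenes. Their part in this contrast cannot be told apart from that of the transgenes. The hs:wnt8a effect minus the hs:dkk1b effect was 2.57 ± 0.70 on the log2 scale for irx1a (SE, edgeR, adjusted p = 0.319), 1.01 ± 0.23 for irx7 (SE, edgeR, adjusted p = 0.089) and 0.12 ± 0.28 for irx1b (SE, edgeR, adjusted p = 1), and 0.205% of genes passed. The irx7 value passed without hs:wnt8a replicate 3 (1.22, edgeR, adjusted p = 0.00164), the library below all siblings, and not without any of the other 11 libraries, where adjusted p reached 0.326. With the replicate block irx1a (2.53 ± 0.44, SE, edgeR, adjusted p = 0.00803) and irx7 (1.00 ± 0.21, SE, edgeR, adjusted p = 0.0335) both passed, where 1.27% of genes did, and irx1b did not (0.13 ± 0.22, SE, edgeR, adjusted p = 0.899). The block pairs hs:wnt8a replicates 2 and 3 with siblings by number, a pairing that the correlations leave uncertain. At 5.5 hpf the same contrast was -0.0013 for irx1a, -0.22 for irx1b and -0.21 for irx7 (edgeR, adjusted p = 1 for each), where 0.0308% of genes passed.

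Placed in order of their means, the groups fell differently for each gene. For irx1a the 4 groups at 7.5 hpf all stood above the 4 at 5.5 hpf, in the order hs:wnt8a (13.4 CPM), siblings of hs:dkk1b (10.4), siblings of hs:wnt8a (7.54) and hs:dkk1b (3.08), the last with no overlap with its neighbours on either side. For irx1b the order ran from 74.6 CPM in siblings of hs:wnt8a at 7.5 hpf to 26.4 CPM in hs:wnt8a embryos at 5.5 hpf, and only this lowest group was clear of its neighbour. For irx7 the 6 upper groups, from 171.4 CPM in hs:wnt8a embryos at 7.5 hpf to 118.4 CPM in hs:dkk1b embryos at 5.5 hpf, overlapped step by step. The lowest 2, hs:wnt8a at 5.5 hpf (94.4 CPM) and hs:dkk1b at 7.5 hpf (79.7 CPM), lay below the others and overlapped each other. Across the 23 libraries log2 CPM of irx1a and irx1b had a Pearson r of 0.83, which was 0.29 once group means were taken out. For irx1a and irx7 r was 0.44 (0.11 within groups), and for irx1b and irx7 0.42 (0.08 within groups). These describe libraries that share stage and cross.

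Of 10 other Iroquois genes listed, 8 had a row and 4 passed the filter on low counts (irx3a, irx3b, irx4b and irx5a). Between the times irx5a and irx3b rose in both sets of siblings. irx5a had log2 fold changes of 3.27 ± 0.52 (SE, edgeR, adjusted p = 0.000214) in siblings of hs:dkk1b and 3.62 ± 0.57 (SE, edgeR, adjusted p = 0.000104) in siblings of hs:wnt8a. irx3b had 3.22 ± 0.65 (SE, edgeR, adjusted p = 0.00114) and 2.03 ± 0.60 (SE, edgeR, adjusted p = 0.0119) in the same comparisons. None of the 4 passed in any of the 4 comparisons of a transgene with siblings, with median log2 fold changes of -0.14 and -0.09 for hs:dkk1b and 0.07 and 0.18 for hs:wnt8a at 7.5 and 5.5 hpf, beside medians between -0.0045 and 0.0069 over all genes. With the replicate block irx3a passed with hs:dkk1b at 5.5 hpf. It averaged 6.23 ± 3.32 CPM in hs:dkk1b embryos and 14.1 ± 4.5 CPM in siblings (SD, n = 3 each), a blocked log2 fold change of -1.23 ± 0.13 (SE, edgeR, adjusted p = 0.000415), where 0.246% of all genes passed.

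Genes of the Wnt pathway and of the neural regions around the Iroquois domain give the setting of these values. The lists were chosen with earlier results of these data known, so their counts are not independent support. With hs:dkk1b at 7.5 hpf, where 0.154% of all genes passed, 6 of 10 Wnt feedback and target genes fell and none rose (median log2 fold change -1.56). They include axin2, a Wnt feedback inhibitor, with 26.8 ± 4.1 CPM in hs:dkk1b embryos and 143.7 ± 21.5 CPM in siblings, and sp5a, a Wnt-induced transcription factor, with 13.9 ± 2.0 CPM in hs:dkk1b embryos and 109.8 ± 7.4 CPM in siblings (SD, n = 3 each). nkd1, another feedback inhibitor, had a log2 fold change of -1.91 ± 0.20 and lef1, a nuclear effector of the pathway, -1.22 ± 0.15 (SE, edgeR, adjusted p = 3.97e-05 and 0.000315). Of 11 midbrain and boundary genes tested, 3 fell (en2a, wnt8b and her5; median -0.62). The ligand gene wnt8b had 1.61 ± 0.54 CPM in hs:dkk1b embryos and 12.5 ± 2.1 CPM in siblings, and her5, which encodes a Hairy/E(spl)-type repressor of the midbrain-hindbrain boundary, had 10.5 ± 1.6 CPM in hs:dkk1b embryos and 26.0 ± 2.5 CPM in siblings (SD, n = 3 each). No hindbrain gene of 8 (median -0.70), no forebrain gene of 10 (median 0.52) and no early neurogenesis gene of 10 (median -0.07) passed. With the replicate block 7 Wnt feedback and target genes, 4 midbrain and boundary genes (fgf8a besides the 3 above), 4 hindbrain genes (gbx1, hoxb1b, meis3 and hnf1ba) and 2 early neurogenesis genes (neurog1 and dld) fell. The forebrain genes fezf2 and rx3 rose in that fit, as did sox2, which was placed in the early neurogenesis list.

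At 5.5 hpf with hs:dkk1b, where 0.0513% of all genes passed, 2 of 10 Wnt feedback and target genes (nkd1 and sp5a) fell. So did 1 of 8 hindbrain genes (gbx1), and no midbrain and boundary gene of 11 passed. With the replicate block 5 of the Wnt genes, 2 hindbrain genes (gbx1 and hoxb1b) and 1 early neurogenesis gene (dld) fell. With hs:wnt8a at 5.5 hpf no gene of the neural and Wnt lists passed in the fit without the block. With the block 4 of 10 forebrain genes and 1 of 10 early neurogenesis genes fell, where 113 of 19504 genes passed. The correlations gave no ground for the pairs of that comparison. Without the block the forebrain genes had a median log2 fold change of -1.08 in that comparison. In siblings of hs:wnt8a against siblings of hs:dkk1b at the same time, 7.73% of all genes passed. There 5 of 10 forebrain genes were lower and 2 of 10 Wnt genes (nkd1 and notum1b) higher, with 1 Wnt gene (lgr4) lower. Lower too were 2 of 11 midbrain and boundary genes, 1 of 10 early neurogenesis genes and 1 of 8 axial mesoderm markers. Of 10 heat-shock chaperone genes 1 passed as higher, but their median log2 fold change was 1.85, beside -0.02 over all genes. Their summed level was 26419 to 39665 CPM in siblings of hs:wnt8a and 13372 to 17019 CPM in siblings of hs:dkk1b.

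With hs:wnt8a at 7.5 hpf, where 0.0974% of all genes passed, 8 of 10 forebrain genes fell (median -2.86). six3b, a forebrain homeobox gene, had 5.75 ± 1.48 CPM in hs:wnt8a embryos and 72.8 ± 11.8 CPM in siblings, and rx3, needed for the eye field, had 2.03 ± 0.51 CPM in hs:wnt8a embryos and 54.2 ± 13.0 CPM in siblings (SD, n = 3 each). From the early neurogenesis list sox2, 1 of 10, and the axial mesoderm marker gsc, 1 of 8, fell too. No midbrain and boundary gene of 11 (median -0.01), no hindbrain gene of 8 (median 0.10) and no Wnt feedback and target gene of 10 (median 0.40) passed. The forebrain list included otx1, otx2a and otx2b, and it was not shown to mark the forebrain alone. Their means were 57.8, 58.0 and 56.9 CPM in hs:wnt8a embryos and 149.8, 123.6 and 107.8 CPM in siblings (n = 3 each). With the replicate block all 10 genes of the forebrain list, 2 of the early neurogenesis list (sox2 and her9) and 1 hindbrain gene (fgf3) fell. In that fit 2 Wnt feedback and target genes (nkd1 and lef1) rose. In the same fit 4 midbrain and boundary genes rose (en2a, wnt8b, her5 and her11), among them wnt8b with 33.0 ± 14.3 CPM in hs:wnt8a embryos and 14.8 ± 2.7 CPM in siblings (SD, n = 3 each). Levels of en2a were low, at 2.03 ± 0.51 CPM in hs:wnt8a embryos and 0.53 ± 0.19 CPM in siblings (SD, n = 3 each). Siblings of hs:dkk1b at 7.5 hpf held 2.11 ± 1.15 CPM of en2a (SD, n = 3), a mean near that of hs:wnt8a embryos. The same block gave no call for irx1a, irx1b or irx7 in this comparison.

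**Figure D5:**
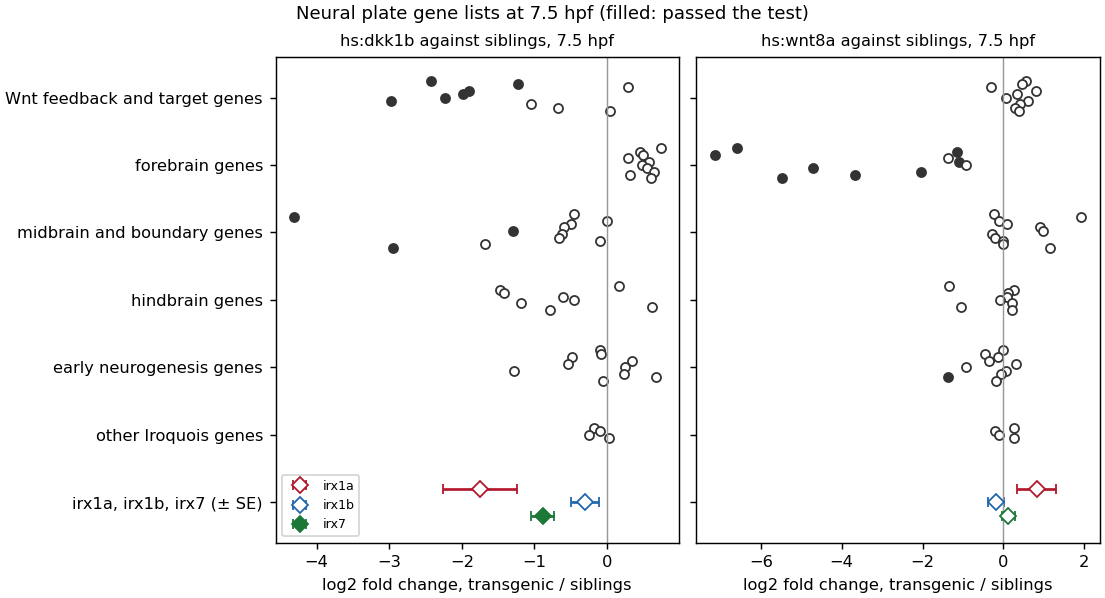
Log2 fold changes at 7.5 hpf of tested genes in 6 lists and of irx1a, irx1b and irx7 (diamonds, with SE), for hs:dkk1b (left) and hs:wnt8a (right) over siblings; filled symbols passed the threshold. On the left the Wnt genes have a median of -1.56 and irx7 is the filled diamond, and on the right the forebrain genes have a median of -2.86.

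The genes whose log2 CPM followed each Iroquois gene most closely over the 23 libraries were found among 10816 genes of sufficient level. For irx1a these were shhb, rangrf, arcn1a, mtch2 and pax3a, with Pearson r from 0.93 to 0.94. For irx1b they were ERC1, fam168b, traf2a, furinb and top2b, with r from 0.88 to 0.89. For irx7 the nearest gene was lnx2b (r = 0.80), followed by eif1axa (0.73), her3 (0.70), rab14 (0.70) and dact1 (0.69). The libraries share 2 times and 2 crosses, so many genes that differ between the times have high values with irx1a and irx1b.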

How the data were processed

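RNA-seq of whole zebrafish embryos was deposited as 1 table per library. The authors deposited whole-number read counts per gene, with TPM and RPKM columns per gene as their own length-scaled values. Per the submitters' processing notes the GRCz11 build and edgeR were used. Which aligner and counting tool were used, and whether strand was, is not given in the sources used here. Gene symbols are the files' own, with a number added where more than 1 row shared a symbol, as for wnt8a_1. Of 31743 identifiers, 28988 were in the gene name table. The members and gene lists were chosen with earlier results of these data known.

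Counts were fitted over all 8 groups with edgeR 4.0.16 in R 4.3.3 (TMM, filterByExpr, quasi-likelihood test), which kept 19504 genes including the 3 members. Each SE is the size of the log2 fold change over the root of its F statistic. TPM served only for levels between genes, and RPKM gave the gene lengths as a check. The fitting code was tested on simulated data. There were 10 planned comparisons, and 2 contrasts between the transgenes were added after values were seen. Alternatives were RLE size factors, DESeq2 1.42.0, no filter on low counts, only the groups compared, a replicate block, leaving out libraries, and TPM in place of CPM. Values were summarised with Python 3.11.15 and pandas 2.3.3.

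Groups share replicate numbers. Deviations from group means over 13129 genes correlated between same-numbered libraries at 0.684 to 0.860 for hs:dkk1b and siblings at 5.5 hpf, 0.597 to 0.665 at 7.5 hpf and 0.368 to 0.810 for hs:wnt8a at 7.5 hpf. Differently numbered libraries correlated at -0.692 to 0.254, -0.475 to -0.183 and -0.804 to 0.720 in the same order. The numbers were taken as pairs there, from the data and not the labels. Deviations from a mean cancel within a group, so the values of differently numbered libraries are partly fixed by those of same-numbered ones. For hs:wnt8a at 7.5 hpf the pairing of replicates 2 and 3 is uncertain. There hs:wnt8a replicate 2 correlated at 0.428 with sibling replicate 3 and 0.368 with sibling replicate 2. Replicate 3 of hs:wnt8a correlated at 0.720 with sibling replicate 2 and 0.693 with sibling replicate 3. In 22 within-group pairs of libraries, chi-square of the counts divided by its degrees of freedom was 3.08 to 54.0, so no library was counted as a copy. Some libraries stood apart from their group. Pairs with sibling replicate 2 of hs:wnt8a at 5.5 hpf gave 32.5 and 33.6 (other pair 3.08), and with sibling replicate 1 at 7.5 hpf 49.3 and 47.6 (other pair 3.53). At 5.5 hpf pairs with replicate 2 gave 43.5 and 47.7 in hs:dkk1b embryos (other pair 11.5). In their siblings they gave 29.9 and 35.7 (other pair 8.19).

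The genes named are the members, up to 4 genes per list and comparison past the threshold with the smallest adjusted p, dkk1b and wnt8a, and the 5 genes most correlated with each member (mean log2 CPM of at least 1, prior count 2, clone names left out). hsp70l, otx1, otx2a and otx2b were named after their values were seen. Coordinates and sequences are not given, since the annotation at hand describes another assembly.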

Additional observations from a re-analysis of the deposited data

How the results depend on the processing

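Of 456 values of irx1a, irx1b and irx7 under alternatives, 420 kept their direction and side of the threshold, 12 lost the threshold, 5 gained it and 19 changed sign. With the replicate block, irx1a with hs:dkk1b at 7.5 hpf gained the threshold (-1.75), as did the contrast between transgenes at 7.5 hpf for irx1a (2.53) and irx7 (1.00, and 1.02 by DESeq2). The pairing changed no other call of the 3 genes. For irx7 with hs:dkk1b at 7.5 hpf the threshold was kept with the block (-0.90) and by DESeq2 (-0.89). It was lost when only the groups compared were fitted (-0.90, adjusted p = 0.123 by edgeR) and without both replicate 1 libraries (-1.03). irx1b between times in siblings of hs:dkk1b lost it when only the groups compared were fitted (0.56). The contrast between transgenes for irx1a at 5.5 hpf was -0.0013 and turned to 0.0032 with RLE, 0.0124 by DESeq2 and 0.0037 with only the groups compared. Leaving out 1 library moved irx7 with hs:dkk1b at 7.5 hpf between -0.99 and -0.73, irx1a with hs:wnt8a at 5.5 hpf between -1.80 and 0.78, irx7 with hs:wnt8a at 7.5 hpf between -0.0247 and 0.33, irx1b in the hs:dkk1b effect between times from -0.16 to 0.21, and irx1b between times in siblings of hs:dkk1b from 0.44 to 0.77. It moved the contrast between transgenes for irx1a at 5.5 hpf from -1.35 to 1.24, and at 7.5 hpf for irx1b from -0.0184 to 0.28 and for irx7 from 0.86 to 1.22 (edgeR, adjusted p from 0.00164 without hs:wnt8a replicate 3 to 0.326 without hs:wnt8a replicate 2). It moved siblings of hs:wnt8a against siblings of hs:dkk1b for irx1a at 5.5 hpf from -1.62 to 0.0781 and for irx1b at 7.5 hpf from -0.0697 to 0.18. The cause was not tested. In hs:wnt8a at 5.5 hpf same-numbered libraries correlated at -0.133 and -0.112, which gave no ground for pairs. The blocked edgeR fit still paired these libraries by number. It gave adjusted p of 0.668, 0.138 and 0.212 for irx1a, irx1b and irx7, and these pairs also enter the dispersion that all blocked tests share. The comparisons among siblings could not be fitted with a block, because each number is shared only within a cross and time.

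Counts of genes called varied more. With hs:dkk1b at 5.5 hpf 10 genes were called, against 27 by DESeq2, 0 with only the groups compared and 48 with the replicate block (5 to 25 without 1 library). With hs:dkk1b at 7.5 hpf 30 were called, against 58 by DESeq2, 146 with the block and 10 without both replicate 1 libraries (15 to 23 without 1 library). With hs:wnt8a at 5.5 hpf 0 were called, against 5 by DESeq2 and 113 with the block, and at 7.5 hpf 19, against 29, 75 with the block and 9 with only the groups compared (11 to 17 without 1 library). The effects between times gave 0 for hs:dkk1b (1 by DESeq2, 3 with the block) and 1 for hs:wnt8a (3 by DESeq2, 19 with the block, 2 with only the groups compared, 0 to 2 without 1 library). The contrast between transgenes gave 6 at 5.5 hpf (29 by DESeq2, 10 unfiltered, 0 with only the groups compared, 125 with the block, 1 to 17 without 1 library) and 40 at 7.5 hpf (75 by DESeq2, 247 with the block, 22 without both replicate 1 libraries). Siblings between crosses gave 1508 at 5.5 hpf (466 with only the groups compared, 353 to 2134 without 1 library) and 345 at 7.5 hpf (918 by DESeq2, 205 unfiltered, 23 with only the groups compared, 55 to 495 without 1 library), and siblings of hs:dkk1b between times gave 6050 (3628 to 5699 without 1 library). Reads of irx1a, 4 to 33 per library at 5.5 hpf, limit what can be shown there.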
